A study of Mus musculus with 4 samples.

Results

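Expression of 10 genes that write, read or erase DNA methylation or make up Polycomb repressive complex 2 (PRC2) was followed in mouse cells. The genes were chosen by name: Dnmt1, Dnmt3a, Dnmt3b, Uhrf1, Tet1, Tet2, Tet3, Ezh1, Ezh2 and Suz12. All 10 were matched by symbol among the 50686 gene identifiers of the count tables, and all 10 passed the filter on low counts that left 15394 genes for testing. The study sequenced total RNA in bulk from cultured cells of spleen and lymph node. It held 4 libraries, 1 per group: Yap KO stimulated, WT stimulated, Yap KO unstimulated and WT unstimulated cells. No source used here gives the stimulus, the cell type, the strain, the age and number of the animals, or the exons removed in the Yap KO. The number 24 stands in the stimulated titles without a unit and in none of the unstimulated ones, so time in culture may differ between the states as well. All titles carry the number 1. The stimulated and the unstimulated library of a genotype may thus share 1 animal or culture, and a difference by genotype cannot be told apart from one between cell sources.

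Methyl groups on cytosine in CG pairs are copied to new DNA strands by Dnmt1, the maintenance methyltransferase, which is brought to newly replicated DNA by Uhrf1, a reader of hemimethylated sites. Dnmt3a and Dnmt3b set new methyl marks, and the dioxygenases Tet1, Tet2 and Tet3 oxidise methylcytosine as a first step of its removal. PRC2 methylates histone H3 at lysine K27, a mark of repressed genes, through either of its catalytic subunits Ezh1 and Ezh2, and needs Suz12 as a scaffold. In many cell types Ezh2 and Uhrf1 are known to be high in dividing cells, and Ezh1 to be relatively abundant in resting ones.

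Reads assigned to genes numbered 19935523 in Yap KO stimulated, 20976343 in WT stimulated, 25419974 in Yap KO unstimulated and 22088392 in WT unstimulated cells. Yap1, the Hippo pathway coactivator gene of the genotype labels, had 2 and 3 reads in the stimulated Yap KO and WT libraries and 0 and 1 read in the unstimulated ones, too few to check the genotype labels. Levels are given in CPM, read counts relative to library depth with scaling by the trimmed mean of M-values (TMM). The 6 markers of T cells summed to 1111 CPM in Yap KO stimulated, 1257 CPM in WT stimulated, 3098 CPM in Yap KO unstimulated and 3002 CPM in WT unstimulated cells. Cd8a, which encodes a chain of the CD8 coreceptor, had 252 and 271 CPM in stimulated Yap KO and WT cells and 783 and 821 CPM in unstimulated ones, and Cd4 had at most 3 reads. The 5 B cell markers summed to between 10.2 and 42.7 CPM, the 4 dendritic cell markers to between 2.69 and 32.7 CPM, and the 5 monocyte and macrophage markers to between 18.0 and 31.8 CPM. The labels name no cell type.

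Stimulated cells had more RNA of Uhrf1, Ezh2, Dnmt1 and Suz12 than unstimulated cells, and less of Tet1, Ezh1, Tet3 and Tet2, in both genotypes. The changes were 22.7-fold up for Uhrf1, 19.0-fold up for Ezh2 and 19.2-fold down for Tet1, while the other 5 lay between 1.73-fold and 4.11-fold. Dnmt3a and Dnmt3b passed the test in neither direction. In edgeR's quasi-likelihood test on an additive model of genotype and state, with Benjamini-Hochberg adjustment at 0.05, 4 of the 10 genes were higher in stimulated cells, against 32.1% of all genes tested, and 4 were lower, against 32.5%. A change in this test was thus common among all genes, and the count of 8 in 10 stands beside 64.6% of genes called in either direction. The median log2 difference was -0.07 over the 10 genes and -0.05 over all 15394 genes. With 1 library per group, the p-values do not rest on replicate cultures. They rest in part on how alike a gene's change was in Yap KO and WT cells, with 1 residual degree of freedom. A larger part comes from the spread shared over all genes, with 8.452 prior degrees of freedom.

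**Figure D1:**
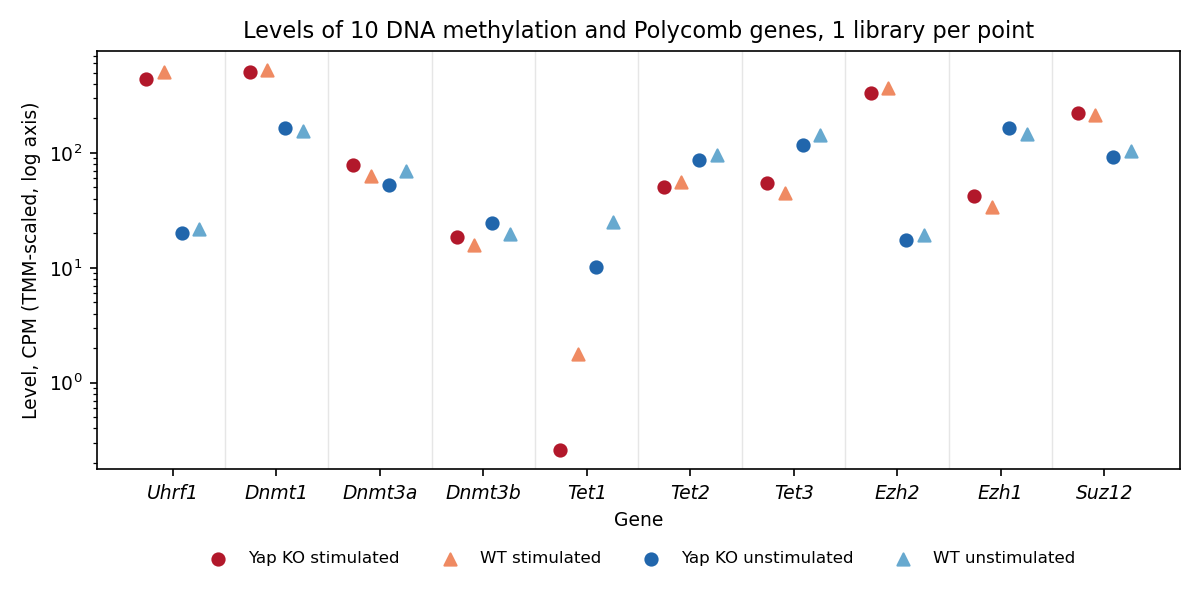
Level of each of the 10 genes in CPM (TMM-scaled, log axis) in the 4 libraries, 1 point per library. Uhrf1 and Ezh2 stand at 329 to 510 CPM in stimulated and 17.3 to 21.6 CPM in unstimulated cells, and Tet1 stands lowest of the 10 in Yap KO stimulated cells, at 0.259 CPM.

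The starts of these genes were read from RefSeq promoter windows of 250 bases before and 50 bases after each start (GRCm38.p6), which matched 10 of 10 genes with 15 windows. Searched on both strands, CCAAT, the box bound by the factor NF-Y, was in at least 1 window of 4 of the 4 genes that rose, of 1 of the 4 that fell (Tet3) and of 0 of the 2 that were not called. By window these were 6 of 7, 1 of 4 and 0 of 4, against 37.4% of all 32851 mouse windows, and windows of 1 gene are not independent. The counts by gene have no such share beside them, and the genes that rose had more windows to match in than those that fell. TTTGGCGC, a form of the E2F site, began 4 bases after the Ezh2 start and 34 bases after 1 of the Dnmt1 starts, and was in 0.514% of all windows. TTTCCCGC, another form of it, began 219 bases before the Suz12 start and was in 1.07% of all windows. Neither of these 2 E2F forms was found in the windows of the other genes. Other forms of the site were not searched for, so these genes may hold one. A match is a description of the letters, not a measured binding site. The 250 bases before the start are shown for 3 genes that rose and for Ezh1, which fell, 5' to 3' along the gene's strand with CCAAT and its reverse complement in capitals, as examples with and without the box that hold no annotated exon of their own gene. They were chosen after the matches were seen. Of the windows not shown, 1 Dnmt1 window has no CCAAT and the Tet3 window has 1. The Dnmt1 window with TTTGGCGC, part of which is annotated exon, has 3. That window holds 33 CG pairs (percentile 91.4 of all windows), against 2 (percentile 14.1) in the window of the Dnmt1 sequence shown. Which Dnmt1 start these cells use was not tested. The Uhrf1 sequence (chr17:56304063-56304312, plus strand) lies inside the annotated extent of the gene, the Dnmt1 sequence is chr9:20959889-20960138 (minus strand), the Suz12 sequence chr11:79992856-79993105 (plus strand) and the Ezh1 sequence chr11:101226464-101226713 (minus strand).
Uhrf1: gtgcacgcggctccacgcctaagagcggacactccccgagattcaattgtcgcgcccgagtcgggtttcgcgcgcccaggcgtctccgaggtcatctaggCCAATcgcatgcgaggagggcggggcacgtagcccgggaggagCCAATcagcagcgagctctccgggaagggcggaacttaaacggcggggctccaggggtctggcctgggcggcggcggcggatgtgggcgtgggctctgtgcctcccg
Dnmt1: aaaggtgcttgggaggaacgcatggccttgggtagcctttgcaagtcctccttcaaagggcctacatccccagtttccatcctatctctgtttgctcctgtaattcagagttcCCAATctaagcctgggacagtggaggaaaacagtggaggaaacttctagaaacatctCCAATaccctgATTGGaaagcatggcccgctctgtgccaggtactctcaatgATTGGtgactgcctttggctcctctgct
Suz12: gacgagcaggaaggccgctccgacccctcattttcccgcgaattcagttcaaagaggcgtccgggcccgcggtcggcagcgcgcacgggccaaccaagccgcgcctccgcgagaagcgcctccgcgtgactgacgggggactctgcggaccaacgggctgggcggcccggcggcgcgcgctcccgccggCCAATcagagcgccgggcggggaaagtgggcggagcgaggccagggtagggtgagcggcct
Ezh1: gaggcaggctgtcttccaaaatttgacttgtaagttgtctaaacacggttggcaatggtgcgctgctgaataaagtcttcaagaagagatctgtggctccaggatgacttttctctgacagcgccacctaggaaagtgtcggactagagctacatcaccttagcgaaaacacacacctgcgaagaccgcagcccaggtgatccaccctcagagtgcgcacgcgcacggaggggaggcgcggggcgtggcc
In these sequences the box begins 150 and 107 bases before the Uhrf1 start and 61 bases before the Suz12 start, it occurs 4 times before the Dnmt1 start, and it is not in the Ezh1 window. In the Ezh2 window, part of which is annotated exon, it begins 90, 64 and 11 bases before the start.

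Uhrf1 (ENSMUSG00000001228, chr17:56303321-56323486 in GENCODE M21 on GRCm38, plus strand) had 8521 reads in Yap KO stimulated and 10423 in WT stimulated cells, against 524 in Yap KO unstimulated and 496 in WT unstimulated cells. These were 441 and 510.2 CPM in the stimulated and 20.2 and 21.6 CPM in the unstimulated libraries. Both stimulated values lay far above both unstimulated ones. The log2 difference was 4.50 ± 0.14 (SE of the additive fit), with an edgeR quasi-likelihood adjusted p of 1.90e-08, at percentile 97.3 of all genes tested. Uhrf1 shares 24.2% of the 31-base words of its transcripts with other genes, mostly with the gene Gm5648, which had 43, 30, 0 and 2 reads in the same library order. Reads aligned in more than 1 place are not in the gene counts.

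Dnmt1 (ENSMUSG00000004099, chr9:20907209-20959888, minus strand) had 9847 and 10795 reads in the stimulated Yap KO and WT libraries, against 4266 and 3532 in the unstimulated Yap KO and WT libraries. The levels were 510.0 and 528 CPM in stimulated and 164 and 154 CPM in unstimulated cells, with no overlap of the states. Its log2 difference was 1.71 ± 0.13 (edgeR quasi-likelihood adjusted p = 2.10e-06), 3.26-fold. Per kilobase of the longest annotated transcript, the scale used below to compare genes with each other, Uhrf1 stood at 1.42 and 1.58 times the level of Dnmt1 in stimulated Yap KO and WT cells and at 0.201 and 0.230 times in unstimulated ones.

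Dnmt3a (ENSMUSG00000020661, chr12:3806007-3914443, plus strand) had 78.4 CPM in Yap KO stimulated and 63.5 CPM in WT stimulated cells, against 52.0 CPM in Yap KO unstimulated and 70.1 CPM in WT unstimulated cells. The states overlapped: WT unstimulated cells lay between the stimulated libraries. The log2 difference of the additive fit was 0.22 ± 0.18 (edgeR quasi-likelihood adjusted p = 0.290). Dnmt3b (ENSMUSG00000027478, chr2:153649450-153687730, plus strand) had 18.4 and 15.7 CPM in stimulated Yap KO and WT cells, against 24.5 and 19.7 CPM in the unstimulated ones. Both stimulated values were the lower, by 0.37 ± 0.17 on the log2 scale, which did not pass the edgeR test (adjusted p = 0.0854) but did when libraries were scaled to total reads only (adjusted p = 0.0416). Dnmt3b shares 13.5% of its 31-base words with other genes, and its near copy Dnmt3c had at most 3 reads in any library.

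Tet1 (ENSMUSG00000047146, chr10:62804570-62908996, minus strand) had 5 reads in Yap KO stimulated and 36 in WT stimulated cells, against 265 in Yap KO unstimulated and 579 in WT unstimulated cells. The exact 95% Poisson intervals of these counts were 1.62 to 11.7, 25.2 to 49.8, 234 to 299 and 533 to 628 reads, so the 4 libraries were apart beyond counting error. In CPM the values were 0.259, 1.76, 10.2 and 25.3 in the same order. Stimulated cells were lower by a log2 difference of -4.26 ± 0.34 (edgeR quasi-likelihood adjusted p = 3.45e-06), at percentile 2.48 of all genes tested. Tet2 (ENSMUSG00000040943, chr3:133463679-133545139, minus strand) had 50.2 and 55.8 CPM in stimulated Yap KO and WT cells, against 87.1 and 95.9 CPM in unstimulated Yap KO and WT cells. The states did not overlap, and the log2 difference was -0.79 ± 0.13 (edgeR quasi-likelihood adjusted p = 0.000420). Tet3 (ENSMUSG00000034832, chr6:83362373-83459084, minus strand) had 55.2 and 44.7 CPM in stimulated Yap KO and WT cells, against 116 and 142 CPM in unstimulated Yap KO and WT cells. Here too the states were apart, by a log2 difference of -1.37 ± 0.16 (edgeR quasi-likelihood adjusted p = 4.57e-05).

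Ezh2 (ENSMUSG00000029687, chr6:47530139-47595341, minus strand) had 6346 reads in Yap KO stimulated and 7485 in WT stimulated cells, against 449 in Yap KO unstimulated and 443 in WT unstimulated cells. The levels were 329 and 366 CPM in stimulated and 17.3 and 19.3 CPM in unstimulated cells, far apart by state. The log2 difference was 4.25 ± 0.14 (edgeR quasi-likelihood adjusted p = 1.99e-08). Ezh1 (ENSMUSG00000006920, chr11:101191115-101226463, minus strand) had 810 and 685 reads in the stimulated Yap KO and WT libraries, against 4243 and 3330 in the unstimulated ones. Its levels were 42.0 and 33.5 CPM in stimulated and 163 and 145 CPM in unstimulated cells, the opposite order to Ezh2. The log2 difference was -2.04 ± 0.13 (edgeR quasi-likelihood adjusted p = 8.07e-07). Suz12 (ENSMUSG00000017548, chr11:79993106-80034123, plus strand) had 222 and 215 CPM in stimulated Yap KO and WT cells, against 91.9 and 104 CPM in unstimulated Yap KO and WT cells. It was higher in both stimulated libraries, by 1.16 ± 0.13 on the log2 scale (edgeR quasi-likelihood adjusted p = 2.98e-05). Exons of Gm26625 overlap 174 bases of Ezh2 exons on the opposite strand and had 835, 910, 34 and 58 reads in Yap KO stimulated, WT stimulated, Yap KO unstimulated and WT unstimulated cells. Gm26563 overlaps 178 bases of Suz12 exons in the same way, with 411, 455, 294 and 268 reads, and whether the counting used strand is not given in the sources used here.

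The 7 proliferation markers, among them Mki67 and Top2a, moved with the genes that rose: they summed to 3391 and 3370 CPM in stimulated Yap KO and WT cells, against 362 and 367 CPM in unstimulated ones, none of the 7 was at 0 in any library, and 7 of 7 passed the same test as higher. The T cell markers moved with the genes that fell, as 5 of 6 were lower. Of the 3 stromal and endothelial markers, Cdh5 was at 0 in all 4 libraries and Col1a1 at 0 in both stimulated ones, with 18 and 12 reads in unstimulated Yap KO and WT cells. Their summed level was nearly all Pecam1, an adhesion molecule gene that leukocytes also express, at 9.996 and 11.1 CPM in stimulated and 118 and 156 CPM in unstimulated Yap KO and WT cells. The part of any of these in the results above was not tested, and in bulk samples fewer cells of a type and less RNA per cell cannot be told apart.

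**Figure D2:**
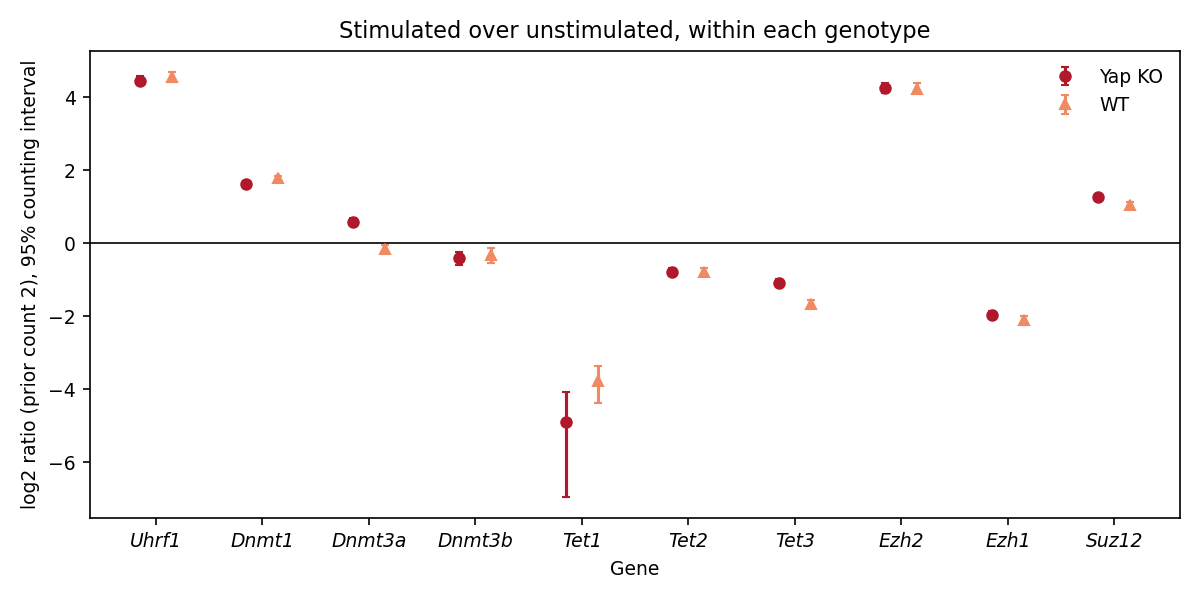
Log2 ratio of stimulated over unstimulated cells for each gene, Yap KO and WT side by side, with exact 95% counting intervals. Uhrf1 and Ezh2 lie above 4 in both genotypes, Tet1 lies at -4.88 in Yap KO and -3.77 in WT cells, and the Dnmt3a ratio is above 0 in Yap KO and below 0 in WT cells.

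Within each genotype the response to stimulation can be given only as a ratio of 1 library to another, with an interval that covers counting error and not the spread between cultures. Ezh2 had log2 ratios of 4.24 in Yap KO and 4.24 in WT cells, and Uhrf1 4.45 and 4.55. Tet2 had -0.79 and -0.78. For Dnmt3a the ratio was 0.59 (95% interval 0.48 to 0.70) in Yap KO and -0.14 (-0.25 to -0.04) in WT cells, opposite in sign, which was the case for 1.87% of all genes tested by the same rule. Of the 10 genes, 1, Dnmt3a, met that rule. The Tet3 ratio was -1.07 (-1.18 to -0.97) in Yap KO and -1.67 (-1.78 to -1.56) in WT cells. The difference of the log2 ratios, Yap KO minus WT, was 0.73 (0.58 to 0.88) for Dnmt3a and 0.59 (0.45 to 0.74) for Tet3. For Suz12 it was 0.22 (0.12 to 0.32) and for Dnmt1 -0.14 (-0.22 to -0.07). The interval included 0 for the other 6 genes, among them Tet1, whose difference was -1.11 (-2.31 to 0.09) on few reads. None of these differences has a replicate, so none was tested.

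None of the 10 genes passed the edgeR quasi-likelihood test of Yap KO against WT cells with adjustment over all genes, while DESeq2 called Tet1. The edgeR counts were 0 higher, against 0.695% of all genes tested, and 0 lower, against 0.487% (1.18% in either direction), and 1 gene, Tet1, had an unadjusted p under 0.05, as had 1546 of all 15394 genes, about the same share. Tet1 was 6.81-fold lower in Yap KO than in WT cells after stimulation, a log2 ratio of -2.41 (-4.47 to -1.41), and 2.48-fold lower without it, a log2 ratio of -1.30 (-1.52 to -1.10). The log2 difference of the additive fit was -1.61 ± 0.32, with an edgeR quasi-likelihood adjusted p of 0.0501. Across 6 alternative analyses this p ran between 7.45e-06 and 0.0711, and it was under the threshold in 4 of them, DESeq2 among them (adjusted p = 0.0306). By size alone, Tet1 was the 1 gene of the 10 that was at least 2-fold lower in both states with both counting intervals excluding no difference, against 0.883% of all genes tested, and 0 of the 10 were higher by that rule, against 0.955%. The dendritic cell markers went the other way to Tet1, summing to 9.06 CPM in Yap KO and 2.69 CPM in WT cells after stimulation and to 32.7 and 9.99 CPM without it. In stimulated cells most of this was Itgax, at 7.41 CPM in Yap KO and 1.08 CPM in WT cells, and Xcr1 stood at 1.09 and 1.42 CPM. The summed B cell markers (20.5 and 10.2 CPM in stimulated, 42.7 and 29.2 CPM in unstimulated Yap KO and WT cells), NK cell markers (71.6 and 54.6, 118 and 53.9 CPM) and monocyte and macrophage markers (23.6 and 18.0, 31.8 and 25.8 CPM) were also the higher in Yap KO cells in both states. The NK cell sum was nearly all Eomes. Eomes stood at 71.6 and 54.5 CPM in stimulated and 115 and 51.7 CPM in unstimulated Yap KO and WT cells. In the stimulated libraries Ncr1 and Klrb1c had at most 1 read each. Most of the stimulated monocyte and macrophage sum was Csf1r, at 20.5 CPM in Yap KO and 14.2 CPM in WT cells. Cd68, at 3.06 and 3.48 CPM, and Lyz2, at 0.0518 and 0.294 CPM, were the lower in stimulated Yap KO cells. Lower in Yap KO cells in both states, as Tet1 was, were the summed stromal and endothelial markers, at 9.996 and 11.1 CPM in stimulated and 119 and 156 CPM in unstimulated Yap KO and WT cells. So were the erythroid markers, at 0.0518 and 0.245 CPM and at 1.69 and 2.75 CPM. The T cell, neutrophil and proliferation sums differed in direction between the states. The part of any of these markers in the Tet1 difference was not tested. If both libraries of a genotype share an animal or culture, these p-values are smaller than a comparison between animals would give.

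The other 9 genes lay between -0.16 and 0.27 in the genotype coefficient (log2), and their edgeR quasi-likelihood adjusted p ran between 0.589 and 0.999. Dnmt3b was higher in Yap KO cells in both states, at log2 ratios of 0.23 with stimulation and 0.31 without it, and so was Ezh1, at 0.32 and 0.17. Uhrf1, at -0.21 and -0.10, Ezh2, at -0.16 and -0.16, and Tet2, at -0.15 and -0.14, were on the lower side in Yap KO cells in both states. Without stimulation, the counting intervals of Uhrf1 (-0.28 to 0.08) and Ezh2 (-0.35 to 0.03) included 0. The ratio changed sign between the states, with both counting intervals excluding 0, for Dnmt3a (0.30 with stimulation and -0.43 without), Tet3 (0.30 and -0.29) and Dnmt1 (-0.05 and 0.09), 3 of the 10 genes, against 8.88% of all genes tested.

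**Figure D3:**
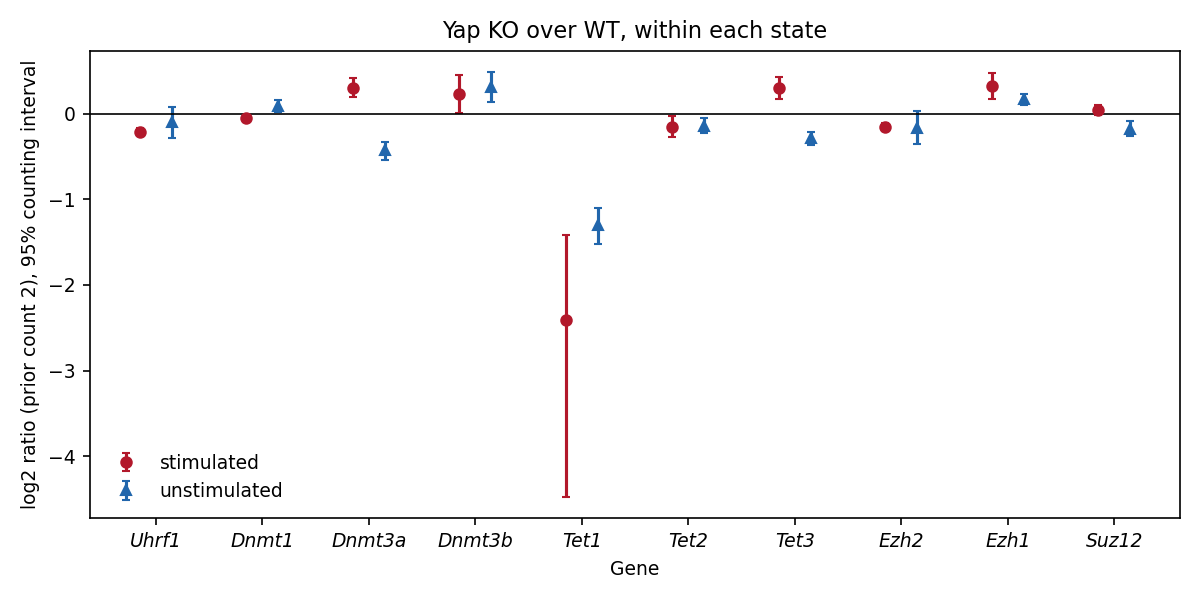
Log2 ratio of Yap KO over WT cells for each gene, stimulated and unstimulated side by side, with exact 95% counting intervals. Tet1 lies at -2.41 in stimulated and -1.30 in unstimulated cells, and the other genes lie between -0.43 and 0.32.

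The make-up of each enzyme family was compared per kilobase. Ezh2 made up 92.2% and 94.3% of the summed Ezh1 and Ezh2 level in stimulated Yap KO and WT cells, against 13.8% and 16.7% in unstimulated ones. As a ratio of levels, Ezh2 stood at 11.8 and 16.5 times Ezh1 in the stimulated libraries, while in unstimulated Yap KO and WT cells Ezh1 stood at 6.26 and 4.98 times Ezh2. Of the reads themselves, Ezh2 took 88.7% (exact Clopper-Pearson 95% interval 87.9 to 89.4%) and 91.6% (91.0 to 92.2%) in stimulated cells and 9.57% (8.74 to 10.4%) and 11.7% (10.7 to 12.8%) in unstimulated ones. Ezh2 stood at 2.33 and 2.68 times Suz12 in stimulated Yap KO and WT cells and at 0.295 and 0.293 times in unstimulated ones. With the union of all annotated exons as the length, these ratios to Suz12 became 1.10 and 1.26 in stimulated and 0.139 and 0.138 in unstimulated cells. Dnmt1 made up 87.6% and 89.8% of the DNMT level in stimulated Yap KO and WT cells and 71.7% and 69.0% in unstimulated ones. The summed DNMT level was 99.2 and 100.2 CPM per kilobase in stimulated and 39.0 and 38.1 CPM per kilobase in unstimulated Yap KO and WT cells.

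For the TET genes the sum went the other way, with 10.6 and 10.3 CPM per kilobase in stimulated and 20.9 and 25.2 CPM per kilobase in unstimulated Yap KO and WT cells. Tet1 supplied 0.171% and 1.19% of it in stimulated Yap KO and WT cells and 3.40% and 6.97% in unstimulated ones. Tet2 and Tet3 made up the rest, Tet2 with 51.9% and 59.0% in stimulated and 45.5% and 41.4% in unstimulated cells. The order of the 10 genes per kilobase began with Uhrf1, Ezh2, Dnmt1 and Suz12 in both stimulated libraries, at 123 and 142, 118 and 131, 86.9 and 90.0, and 50.7 and 49.1 CPM per kilobase in Yap KO and WT cells. In both unstimulated libraries, on this length, it began with Ezh1, at 38.8 and 34.5, Dnmt1, at 28.0 and 26.3, and Suz12, at 21.01 and 23.7 CPM per kilobase, and Tet1 came last in all 4. With the exon union as the length, 20 of the 40 ranks moved. Ezh2 moved to rank 3 in stimulated and 9 in unstimulated cells, and in unstimulated cells Ezh1 moved to rank 2 behind Dnmt1 in Yap KO and to rank 3 behind Suz12 and Dnmt1 in WT. Ranks of neighbours in this order rest on the length used, and no spread over samples can be given with 1 library per group.

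**Figure D4:**
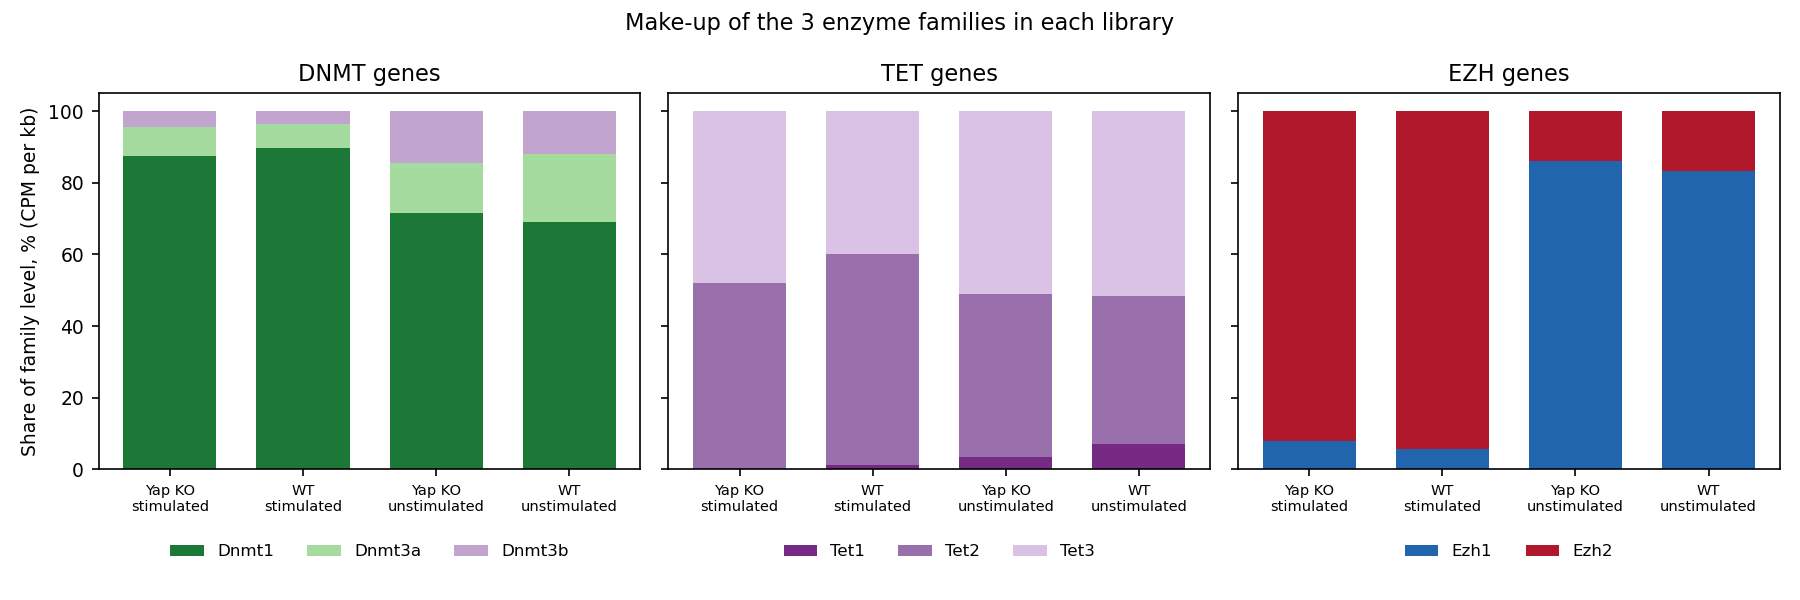
Share of the summed level per kilobase held by each gene of the DNMT, TET and EZH families, 1 bar per library. Ezh2 fills 92.2% and 94.3% of the EZH bar in stimulated Yap KO and WT cells, and Ezh1 fills most of it in the unstimulated bars.

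Related genes were counted in 7 lists of 95 genes, of which 90 were tested. Dnmt3l, Cxxc4, Neil2 and Asxl3 did not pass the filter, and Ezhip was matched to no identifier. Of the 90, 41 rose with stimulation and 33 fell in the edgeR quasi-likelihood test, that is 45.6% and 36.7%, against 32.1% and 32.5% of all genes, with a median log2 difference of 0.10 against -0.05. In each list the genes given with values, apart from Mtf2, are among the up to 3 with the largest rise and the up to 3 with the largest fall of those that passed. Named genes with exons opposite another gene, whose reads may be mixed with it, are Lig1, Cxxc5, Tdg, Gadd45a, Eed, Rbbp7, Phf1, Mtf2, Pcgf5, Kdm2b, Asxl1 and Asxl2.

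Of 11 other PRC2 subunits and partners, 8 rose and 3 fell, with a median of 0.99. Eed, the core subunit that binds the methylated histone tail, had 265 and 231 CPM in stimulated Yap KO and WT cells, against 63.9 and 64.8 CPM in unstimulated ones, a log2 difference of 1.94 ± 0.13 (edgeR quasi-likelihood adjusted p = 1.06e-06). Rbbp7, a histone chaperone of the core, rose by 1.28 ± 0.12 (edgeR adjusted p = 1.22e-05). Of the Polycomb-like accessory factors, Phf19 rose by 3.72 ± 0.26 (edgeR adjusted p = 1.35e-06) and Phf1 fell by 5.43 on the log2 scale, to 1.81 and 2.45 CPM in stimulated Yap KO and WT cells, against 98.5 and 86.5 CPM in unstimulated ones. Phf1 has 1526 exon bases opposite another gene. Mtf2, also a Polycomb-like factor, rose by 0.70 ± 0.13 and passed the edgeR test. Jarid2, a cofactor that helps bring PRC2 to its targets, fell by 1.58 (edgeR adjusted p = 7.79e-06), and Lcor, a corepressor whose locus also makes a PRC2 partner, fell by 0.95 (edgeR adjusted p = 0.00152).

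Of 24 subunits of PRC1, the complex that marks histone H2A, 8 rose and 10 fell, with a median of -0.10. Pcgf5 rose by 2.49 ± 0.14 on the log2 scale (edgeR adjusted p = 3.15e-07), and Kdm2b, which binds unmethylated CG pairs, rose by 1.78 ± 0.16 (edgeR adjusted p = 6.14e-06). Pcgf2 passed on few reads, with 58 and 68 in stimulated Yap KO and WT cells against 12 and 2 in unstimulated ones. Cbx8, a chromodomain subunit that binds methylated H3, fell by 2.16 (edgeR adjusted p = 3.54e-05). Auts2 had 1 and 2 reads in stimulated Yap KO and WT cells and 36 and 15 in unstimulated ones, and its call was lost with DESeq2 (adjusted p = 0.0546). Of 5 genes of H3K27 demethylases and the H2A deubiquitinase, 0 rose and 3 fell, with a median of -0.34. Kdm6a, a demethylase, fell by 0.58, and Asxl2 and Asxl1, partners of the deubiquitinase Bap1, fell by 0.78 and 0.34 (edgeR adjusted p = 0.00250, 0.000392 and 0.0471). The Asxl1 call was lost under 3 other settings, at adjusted p of 0.0565, 0.113 and 0.0725.

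Of 18 cofactors and readers of DNA methylation, 6 rose and 11 fell, with a median of -0.72. Hells, a chromatin remodeller needed for DNA methylation, had 294 and 302 CPM in stimulated Yap KO and WT cells, against 15.5 and 15.1 CPM in unstimulated ones, a log2 difference of 4.29 ± 0.14 (edgeR quasi-likelihood adjusted p = 1.99e-08). Its partner Cdca7 rose by 3.80 ± 0.16 and Lig1, the replicative DNA ligase, by 3.96 ± 0.16 (edgeR adjusted p = 7.33e-08 and 4.88e-08). The methyl-CG reader Zbtb4 fell by 4.98, to 10 and 32 reads in stimulated Yap KO and WT cells, against 871 and 720 in unstimulated ones. Cxxc5, which binds unmethylated CG pairs, fell by 4.05 and Mbd6 by 1.48 (edgeR adjusted p = 5.98e-06 and 0.000231). Of 12 genes for base excision of oxidised cytosine, 8 rose and 3 fell, with a median of 0.71. Tdg, the glycosylase that removes the TET products, had 205 and 203 CPM in stimulated Yap KO and WT cells, against 34.8 and 40.2 CPM in unstimulated ones, and rose by 2.45 ± 0.13 (edgeR adjusted p = 2.93e-07). Neil3 rose by 5.29 and Gadd45b by 2.18, while Gadd45a fell by 1.58, Smug1 by 1.35 and Neil1 by 0.95, all past the edgeR test.

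Of 11 genes listed for the S-adenosylmethionine cycle, which supplies the methyl donor of the DNMT and EZH enzymes, 8 rose and 1 fell, with a median of 0.71. The list is wider than the cycle itself. Among the 8 were 2 transporter chains, the methionine salvage gene Mtap and the Ahcy-like gene Ahcyl1. Ahcy, which clears the product S-adenosylhomocysteine, had 184 and 144 CPM in stimulated Yap KO and WT cells, against 42.5 and 37.6 CPM in unstimulated ones, and rose by 2.02 ± 0.13 (edgeR adjusted p = 8.31e-07). Slc7a5 and Slc3a2, the 2 chains of an amino acid transporter that carries methionine, rose by 2.93 and 1.65, and Mat2b, the regulatory subunit of the synthetase, fell by 0.84. Of 9 genes tied to 2-oxoglutarate and vitamin C, the cofactors of the TET enzymes, 3 rose and 2 fell, with a median of 0.12. D2hgdh, an enzyme that clears the D form of 2-hydroxyglutarate, fell by 1.22 (edgeR adjusted p = 0.000215). Idh1 rose by 1.38 and Idh2 fell by 0.34, both isocitrate dehydrogenases, the Idh2 call being lost with DESeq2 (adjusted p = 0.0913) and without the genotype term (0.109). Glud1, glutamate dehydrogenase, rose by 0.40, a call lost with scaling to total reads only (adjusted p = 0.0544). By genotype, 0 of the 90 related genes passed the edgeR quasi-likelihood test in either direction and 0 passed with DESeq2, 9 had an unadjusted p under 0.05, about the same share as the 1546 of all 15394 genes, and 0 met the 2-fold rule.

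**Figure D5:**
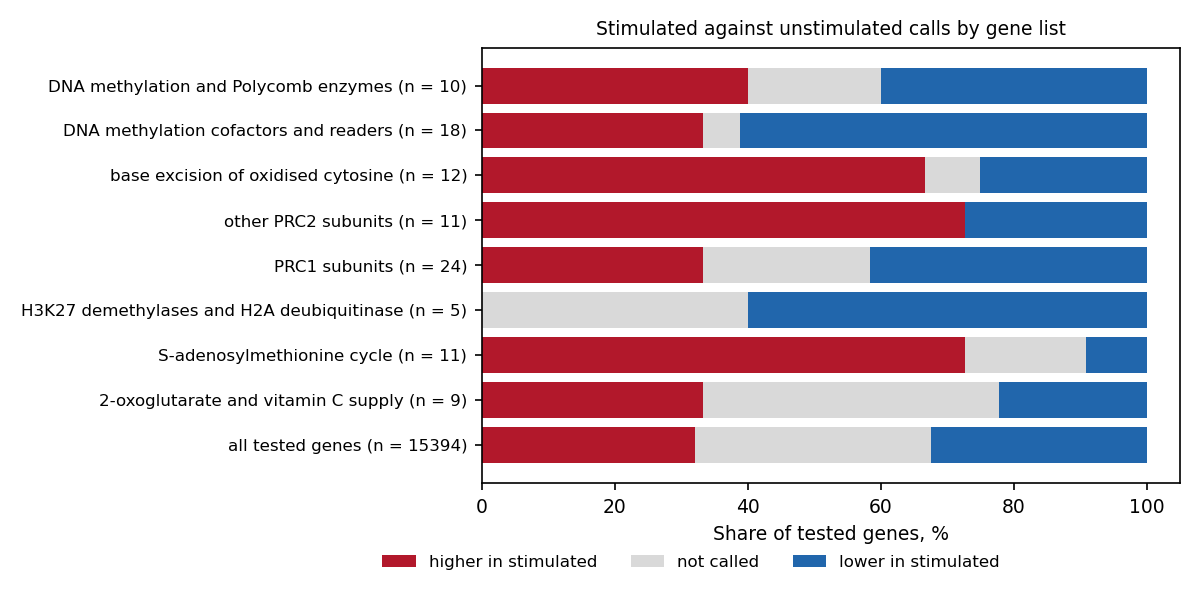
Share of tested genes that were higher, lower or not called in stimulated against unstimulated cells (edgeR quasi-likelihood, adjusted p under 0.05), by gene list, with the number tested in brackets. Of the other PRC2 subunits 8 of 11 are higher, against 32.1% of all genes tested. The list of the S-adenosylmethionine cycle, which includes transporter genes, also has 8 of 11 higher, and base excision of oxidised cytosine 8 of 12.

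The genes most like each of the 10 in pattern were found among 9181 genes with a mean of 10 CPM or more, by the Euclidean distance between centred log2 CPM over the 4 libraries. With so few points the distance mostly reflects the size of the change with stimulation, and it is given as a description. Several of the genes named here, such as Ccne2 and Pitrm1, have exons opposite another gene. Nearest to Uhrf1 were Ccne2, a cyclin of the G1 to S transition, at a distance of 0.0635, Fancd2, of DNA crosslink repair, and Ercc6l, a mitotic helicase. Among the nearest to Ezh2 were Brca1, of homologous recombination, at 0.131, and the kinesin gene Kif22. Dnmt1 lay nearest to Mrpl28, Pitrm1 and Mars, the first at 0.0193, and Suz12 to Ilf2, Zcrb1 and Trnt1. Ezh1 lay nearest to Dennd4c, Dstyk and Mocs1, Tet2 to Fbxl4, Atp13a2 and Sik2, and Tet3 to Setd2, a histone methyltransferase gene, Actn1 and Znfx1. Dnmt3a lay nearest to Ric1, E130208F15Rik and Bdp1, and Dnmt3b to Sp1, Hs3st3b1 and AU040320. Tet1 had no close neighbour in this pool. The interferon-responsive genes Irf7 and Oasl2 were at 0.662 and 0.798 and the transporter gene Slc6a19 at 0.732. The floor of 10 CPM left out genes of low level, and Tet1 itself had only 0.259 and 1.76 CPM in stimulated Yap KO and WT cells. Without that floor other genes lay nearer to Tet1 than those named. Among the 10 genes themselves, Uhrf1 and Ezh2 were the closest pair, at 0.265, followed by Dnmt1 and Suz12 at 0.580 and Dnmt3b and Tet2 at 0.588.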

How the data were processed

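The authors deposited 1 table of raw read counts per Ensembl gene and library, whole numbers with no normalization, of the kind htseq-count writes. The build was mm9, per the submitters' processing notes, and the sequencer was a MiSeq, per the labels' protocols. The libraries held 50257047 to 67650640 entries each, which is high for a MiSeq, and the named sequencer could not be checked. No source used here gives the aligner, annotation or strand setting. The 5 summary entries were left out of sizes and tests: no gene held 48.3 to 52.5% of entries, 7.20 to 7.77% were not aligned, 3.48 to 4.31% aligned more than once and 0.635 to 0.755% were ambiguous. Symbols matched 50376 of 50686 identifiers. Coordinates and lengths are from GENCODE M21, since the files hold none.

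Genes were filtered with edgeR 4.0.16 (filterByExpr by state, minimum count 10), scaled by TMM (factors 0.968 to 1.04) and fitted with additive terms for state and genotype on 4 libraries, which left 1 residual degree of freedom (prior 8.452). The quasi-likelihood F test used Benjamini-Hochberg adjustment over 15394 genes at 0.05; a standard error is the coefficient divided by the square root of F. Ratios of single libraries used a prior count of 2 and exact conditional binomial (Clopper-Pearson) 95% intervals, and differences of ratios a normal interval. All intervals cover counting error only, and ratios of single libraries have no p-value. The fit was tested on simulated data with the same change in both genotypes, which cannot show how it performs where the genotypes differ. Alternatives were RLE factors, total reads only, no filter, a filter of 1 CPM in 2 libraries, DESeq2 1.42.0, state alone and, added after seeing the data, a robust fit. Genes named are all 10 enzymes, up to 3 called genes with the largest rise and fall per related list, related genes 2-fold apart by genotype in both states, and the 3 nearest genes in pattern; a few that this rule names are not reported here. Mtf2, Mtap and Ahcyl1 are named outside this rule. The genes and lists were chosen with earlier results of these data known.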

Additional observations from a re-analysis of the deposited data

Results flagged for a closer look

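Ratios that pointed in opposite directions in the compared groups, with both counting intervals excluding 0, are given here; each rests on 1 library per group, and the differences were not tested. The log2 ratio of stimulated over unstimulated cells for Dnmt3a was 0.59 in Yap KO and -0.14 in WT cells, a pattern that 1.87% of all genes tested showed. The log2 ratio of Yap KO over WT cells changed sign between the states for 3 of the 10 enzymes, against 8.88% of all genes tested. For Dnmt3a it was 0.30 in stimulated and -0.43 in unstimulated cells, for Tet3 0.30 and -0.29, and for Dnmt1 -0.05 and 0.09. Among the named related genes it changed sign for Cdca7 (-0.18 stimulated, 0.31 unstimulated), Gadd45b (0.17, -0.25), Asxl1 (0.23, -0.11), D2hgdh (-0.23, 0.28) and Glud1 (-0.15, 0.13).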

How the results depend on the processing

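The calls of the 8 enzymes that changed with stimulation kept their direction and stayed past the threshold under all 7 alternatives run, and no called value changed sign; the Tet3 genotype coefficient, which lay near 0 and was not called, was -0.0013 in the main fit and 0.02 with no filter. Of the 10 enzymes, 0 were lower in Yap KO cells in the main test and 1, Tet1, with RLE factors (adjusted p = 0.0401), no filter (7.45e-06), the stricter filter (0.0419) or DESeq2 (0.0306); with total reads only and in the robust fit it was 0.0711 and 0.0681. With no filter, 1 related gene was called higher and 2 lower in Yap KO cells, and all genes called numbered 410 higher and 261 lower in place of 107 and 75. Scaling to total reads only moved the median stimulation difference of all genes to -0.14, and 4 of 120 single-library ratios moved by more than counting error: Dnmt1 to 1.56 in Yap KO and 1.69 in WT, Suz12 to 1.19 and 0.96. Without the CPM floor, the nearest genes changed for 6 of the 10 enzymes, and Tet1 kept 0 of 3. The causes were not tested. All 4 libraries carry the same replicate number, which therefore cannot serve as a block. The genotype term of the main fit already ties the stimulated and the unstimulated library of a genotype together. The fit without that term is one of the alternatives. With 1 library per group none could be left out with its group kept, and the precision of Tet1 is limited by its 5 reads in Yap KO stimulated cells.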
